A study of Homo sapiens with 6 samples.

Results

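The 39 genes described here carry out homologous recombination and Fanconi repair of DNA. They were taken by symbol from a list of repair factors, and all 39 were found among the 62260 gene rows of the data. The cells were TYK-nu, a line that the labels describe as ovarian cancer, and RNA was sequenced from 3 libraries of cells with ZNFX1 knocked out (ZNFX1 KO) and 3 libraries of wild-type cells (WT). Both groups were grown in the same medium, received no drug and carry the same batch number in the labels. ZNFX1 is a zinc finger protein with a helicase domain, known for sensing viral RNA. The labels call the libraries of a group biological replicates and say nothing more of separate cultures, so p-values reflect only how far these libraries spread, which may be technical. They give neither the method of the knockout nor a second KO clone, so the loss of ZNFX1 and any other way in which the KO line differs cannot be told apart. RNA came from whole cell pellets, in which fewer cells in a cell cycle phase and less RNA per cell cannot be told apart.

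Homologous recombination repairs a double-strand break by copying the sister chromatid: the ends are sensed and resected, and the BRCA proteins then prepare the single-stranded DNA for strand exchange. The Fanconi pathway removes crosslinks between the strands; its core complex ubiquitinates the FANCD2 and FANCI pair, and the break that follows is handed to recombination. Many of these genes are transcribed mainly in S and G2 phase, when a sister chromatid is present, and loss of the pathway in ovarian cancer is known for making tumours sensitive to PARP inhibitors.

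The libraries held 19115530 (WT 2) to 21036063 (WT 3) fragments on gene rows. The targeted gene itself was measured at 103, 70.5 and 75.2 CPM in the KO libraries, against 130, 208 and 109 CPM in the WT libraries (CPM, gene fragments scaled to library size with TMM factors). All KO libraries lay below all WT libraries, with a log2 fold change of -0.85 (SE 0.27) and an adjusted p of 0.218 in edgeR's quasi-likelihood test, and p = 0.1 in an exact permutation test of TPM (two-sided), a design with 3 libraries per group going no lower. ZNFX1 fragments were present in every KO library, and the level was highest in WT 2. Of 10 markers of ovarian and Muellerian epithelium, 7 had reads in some library, while MUC16, ESR1 and FOLR1 were at 0 in all 6 libraries and PAX8, KRT7 and CDH1 were at or near 0. EPCAM was at 0 in the KO libraries and at most 0.736 TPM in the WT libraries, and KRT18, KRT8 and WT1 (the gene) had reads in every library, at 38.9 to 88.5, 3.76 to 11.5 and 1.13 to 2.36 TPM. In WT 2 KRT18 was at its lowest and KRT8 at its highest. The summed level of 7 endothelial markers was 133, 191 and 170 TPM in the KO libraries, against 132, 110 and 212 TPM in the WT libraries. Almost all of it was CDH5, PECAM1, TEK and KDR, at 85.3, 38.4, 23.0 and 10.2 TPM on average over the 6 libraries. VWF, EMCN and CLDN5 averaged 0.952, 0.103 and 0.00383 TPM. The leukocyte markers PTPRC and CD4 were at 0 in all 6 libraries, and the 8 leukocyte markers, almost all of it CD68, summed to 81.8 to 110 TPM in the KO libraries and 104 to 182 TPM in the WT libraries. The 7 fibroblast markers summed to at most 0.553 TPM in any library.

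All 39 repair genes passed the filter on low counts and were tested. None was called between ZNFX1 KO and WT at an adjusted p of 0.05 in edgeR's quasi-likelihood test, where 0.727% of all 14166 tested genes were called (0.268% higher and 0.459% lower in ZNFX1 KO). At an unadjusted p under 0.05, 6 of the 39 genes (15.4%) were higher in ZNFX1 KO, where 5.92% of all genes were, and 1 (2.56%) was lower, where 9.19% of all genes were. DESeq2's Wald test, which called 4.09% of all genes, called 2 of the 39 (5.13%), ATM and FANCF. The limma-voom fit, which called only 76 of all 14166 tested genes, called 0 of the 39.

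The log2 fold changes leaned to one side without passing the test gene by gene. They were positive, meaning higher in ZNFX1 KO, in 34 of the 39 genes (87.2%), whereas 48.8% of all tested genes were positive. The median was 0.37 over the repair genes and -0.01 over all tested genes, and the values ran between -0.61 for NBN and 0.92 for FANCF. Every KO library lay above every WT library in 7 genes (17.9%), where 9.39% of all tested genes had this arrangement: ATM, PALB2, FANCF, FANCD2, FANCI, PARP1 and PARG. The reverse held for NBN alone (2.56%), where 10.8% of all tested genes had it. Both counts are of CPM. On TPM, which is not scaled by TMM, the KO libraries were above the WT libraries in FANCF alone (2.56%), where 5% of all tested genes had this, and below them in 0 genes, where 12% had this. The other 7 genes overlapped on TPM, a scale chosen after seeing the data, on which the median of all tested genes in WT 3 was 0.15 above the 6-library mean in log2(TPM + 1).

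The libraries of the WT group differed from each other far more than those of the KO group. The median over the 39 genes of the log2 level relative to each gene's 6-library mean was 0.28, 0.31 and 0.22 in ZNFX1 KO 1, 2 and 3, against -0.13, -0.69 and 0.26 in WT 1, 2 and 3. WT 3 thus stood with the KO libraries, WT 1 stood below them and WT 2 stood far below. The summed level of the 39 genes also put WT 1 and WT 2 below the KO libraries but WT 3 above them, at 352, 427 and 368 TPM in the KO libraries, against 255, 176 and 447 TPM in WT 1, 2 and 3. The median SD of the log2 level across 3 libraries was 0.15 in ZNFX1 KO and 0.54 in WT for these genes, and 0.23 in ZNFX1 KO and 0.30 in WT for all tested genes. The SD was larger in WT than in ZNFX1 KO for 35 of the 39 genes (89.7%), and for 59.5% of all tested genes.

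**Figure D1:**
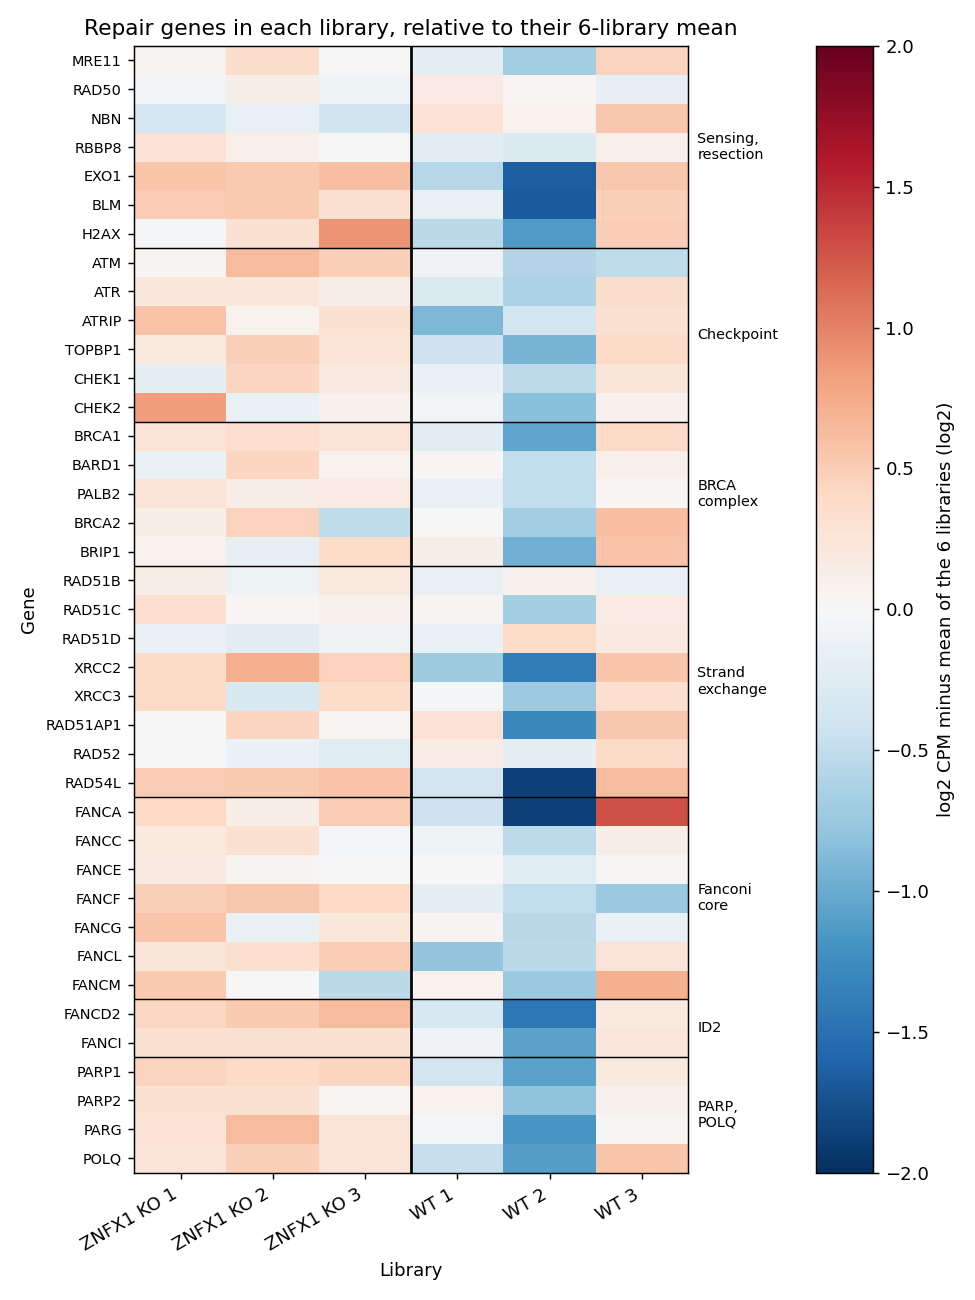
Log2 CPM of the 39 repair genes in each library minus the gene's mean over the 6 libraries, with genes in rows grouped by role, the ZNFX1 KO libraries left of the line and the WT libraries right of it; red is above the mean and blue below. The WT 2 column is the lowest of the 6 libraries in 31 of the 39 genes, while WT 3 lies within the KO range in 16.

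The order WT 2 below WT 1 below WT 3 held in 31 of the 39 genes (79.5%), against 26.5% of all tested genes. WT 2 was the lowest of the 6 libraries in 31 genes (79.5%), against 26.9% of all tested genes. The median difference between WT 3 and WT 2 was 1.00 on the log2 scale over the repair genes and -0.02 over all tested genes. WT 3 lay above every KO library in 13 genes, within the KO range in 16 and below every KO library in 10 (33.3%, 41.0% and 25.6%), against 25.3%, 50.5% and 24.2% of all tested genes. The median difference of the KO mean from WT 3 was -0.01 on the log2 scale. The 8 genes outside the common WT order were RAD50, ATM, ATRIP, RAD51B, RAD51D, FANCF, FANCG and FANCL.

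The size of the difference moved with the WT libraries that were included. Without WT 3, edgeR called 8 of the 39 genes (20.5%), all higher in ZNFX1 KO, where 9.02% of all tested genes were called and 4.09% were called higher: XRCC2, PARP1, FANCD2, H2AX, TOPBP1, FANCL, EXO1 and POLQ. Their log2 fold changes were then 0.99 (TOPBP1) to 1.59 (EXO1), with adjusted p of 0.0197 to 0.0473. Over all 18 alternative settings the adjusted p of these 8 genes ranged between 0.0197 and 0.905. The median over the 39 genes was then 0.57, with 35 positive. Without WT 2 the median was 0.19, with 29 positive and 0 called, where 0.393% of all genes were called. Without WT 1 it was 0.35, with 33 positive and 0 called, where 0.164% of all genes were called. Leaving out ZNFX1 KO 1, 2 or 3 also gave 0 calls among the 39, where 0.751%, 0.0137% and 0.0477% of all genes were called.

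**Figure D2:**
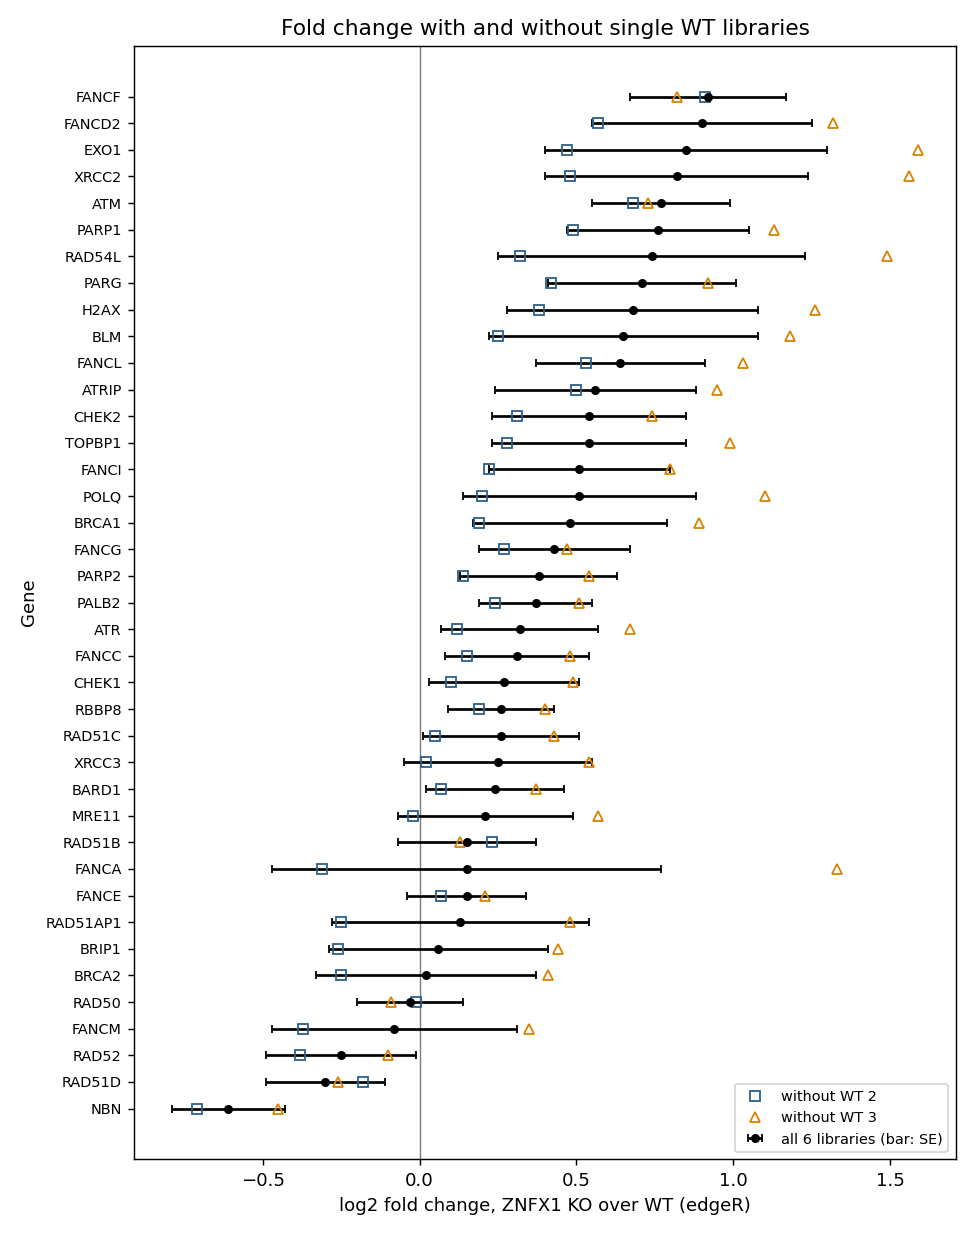
Log2 fold change of ZNFX1 KO over WT for each of the 39 genes (edgeR), with all 6 libraries (black points, bars are standard errors), without WT 2 (squares) and without WT 3 (triangles). FANCF and ATM stay close to their values in both cases, as do RAD50, RAD51B and FANCE among others. EXO1, XRCC2 and FANCA move by more than their standard error without WT 3, as do several others, among them RAD54L, POLQ and H2AX.

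The promoters give a further way to group the genes, since the cell cycle factors of the E2F family bind short sites near the starts of many S phase genes. RefSeq promoters of build GRCh38.p14, covering 250 bases before to 50 after the start, were matched for 37 of the 39 genes. An E2F-type site, counted as TTTCCCGC, TTTGGCGC, TTTCGCGC or TTTGCCGC on either strand, was found in 6 of the 37 (16.2%): EXO1, FANCD2, TOPBP1, XRCC2, FANCC and FANCA. The share was 3.33% of all 27305 promoters, 5.73% of those of tested genes and 58.6% of those of S phase genes. The median difference between WT 3 and WT 2 was 1.78 on the log2 scale in the 6 genes with such a site (0.63 to 3.09) and 0.89 in the 31 without (-0.24 to 2.47). Over tested genes with a promoter in the table this difference was 0.20 with the site and -0.01 without. The median log2 fold change of ZNFX1 KO over WT was 0.68 with the site and 0.32 without, and over all tested genes 0.12 with the site and 0.00 without. The CHR letters TTTGAA or TTCGAA, which mark many G2 and M phase genes, were in 16.2% of the 37 promoters, 11.6% of those of tested genes and 16.6% of all promoters. The NF-Y letters CCAAT, on either strand, were in 43.2% of the 37, 37.4% of those of tested genes and 35.7% of all. The median log2 fold change was likewise higher with a match for CHR (0.44 with, 0.32 without) and for NF-Y (0.46 with, 0.32 without). So was the median difference between WT 3 and WT 2, for CHR (1.20 with, 1.00 without) and for NF-Y (1.15 with, 0.81 without).

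The promoters of 5 genes are printed because they stand for the different placements: EXO1, FANCD2 and XRCC2 follow the common WT order and hold an E2F-type site, while ATM and FANCF are set apart from it and hold none of the letters searched for E2F. Capitals mark the matched letters: the E2F-type site in EXO1, FANCD2 and XRCC2, a CHR and an NF-Y match in ATM, and NF-Y matches in FANCF. A match describes these letters and does not show binding. Of the 29 genes in the common WT order with a promoter in the table, 23 had no E2F-type match, among them RAD54L and BLM, whose WT 3 exceeded WT 2 by 2.47 and 2.14 on the log2 scale. The RefSeq windows (GRCh38.p14) are chr1:241847954-241848253 on the plus strand for EXO1, chr3:10026187-10026486 on the plus strand for FANCD2, chr7:152676092-152676391 on the minus strand for XRCC2, chr11:108222817-108223116 on the plus strand for ATM and chr11:22625774-22626073 on the minus strand for FANCF, each read 5′ to 3′ along its gene.
EXO1: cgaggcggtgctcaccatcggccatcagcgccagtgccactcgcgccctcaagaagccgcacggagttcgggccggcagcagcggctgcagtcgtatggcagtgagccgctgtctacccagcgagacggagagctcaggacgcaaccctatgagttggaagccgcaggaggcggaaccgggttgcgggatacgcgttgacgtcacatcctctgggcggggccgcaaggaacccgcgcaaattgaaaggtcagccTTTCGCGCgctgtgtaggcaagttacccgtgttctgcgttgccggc
FANCD2: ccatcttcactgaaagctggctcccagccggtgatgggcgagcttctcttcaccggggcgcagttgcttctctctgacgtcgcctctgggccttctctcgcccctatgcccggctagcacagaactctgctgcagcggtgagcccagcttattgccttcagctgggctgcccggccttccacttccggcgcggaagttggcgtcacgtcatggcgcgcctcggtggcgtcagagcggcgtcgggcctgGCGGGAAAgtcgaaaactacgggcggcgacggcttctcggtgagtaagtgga
XRCC2: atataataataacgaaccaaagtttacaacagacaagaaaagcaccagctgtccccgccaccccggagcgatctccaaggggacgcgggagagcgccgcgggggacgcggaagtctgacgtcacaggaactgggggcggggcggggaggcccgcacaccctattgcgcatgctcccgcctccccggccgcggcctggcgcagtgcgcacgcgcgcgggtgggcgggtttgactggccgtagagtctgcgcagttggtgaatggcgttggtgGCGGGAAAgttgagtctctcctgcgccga
ATM: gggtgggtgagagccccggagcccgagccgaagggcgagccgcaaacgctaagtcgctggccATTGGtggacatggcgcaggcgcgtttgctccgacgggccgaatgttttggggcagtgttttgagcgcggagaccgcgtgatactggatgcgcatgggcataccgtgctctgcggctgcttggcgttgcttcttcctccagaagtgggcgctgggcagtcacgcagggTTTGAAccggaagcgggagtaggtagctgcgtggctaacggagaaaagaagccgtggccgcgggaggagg
FANCF: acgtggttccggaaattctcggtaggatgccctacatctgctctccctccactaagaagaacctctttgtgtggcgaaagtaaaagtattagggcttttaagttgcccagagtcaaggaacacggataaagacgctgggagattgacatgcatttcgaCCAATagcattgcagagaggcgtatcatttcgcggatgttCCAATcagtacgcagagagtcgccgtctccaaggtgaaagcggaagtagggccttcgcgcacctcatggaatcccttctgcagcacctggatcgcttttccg

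Among the 7 genes of break sensing and end resection, the median log2 fold change was 0.26 and 5 were positive. EXO1, the exonuclease of long-range resection whose promoter is printed above, had 59.3, 57.7 and 61.1 CPM in the KO libraries, against 27.1, 12.8 and 58.8 CPM in the WT libraries. WT 3 lay within the narrow KO range and the other WT libraries were far below it. The log2 fold change was 0.85 (SE 0.45, adjusted p 0.400 in edgeR). BLM, the helicase that works with EXO1 and dissolves joined molecules, had the same arrangement, with 57.6, 58.6 and 50.5 CPM in the KO libraries, against 36.7, 12.8 and 56.7 CPM in the WT libraries, and a log2 fold change of 0.65. H2AX, the histone variant that is phosphorylated around breaks, had 23.7 to 45.2 CPM in the KO libraries, against 11.1 to 34.1 CPM in the WT libraries, and a log2 fold change of 0.68.

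The MRN complex of MRE11, RAD50 and NBN, which holds the broken ends and activates ATM, had log2 fold changes of both signs. NBN, its regulatory adaptor, had 80.4, 92.8 and 77.5 CPM in the KO libraries, against 125, 107 and 149 CPM in the WT libraries. It was the only repair gene with all KO libraries below all WT libraries on CPM, while on TPM ZNFX1 KO 2 at 15.6 was above WT 2 at 15.3. It had a log2 fold change of -0.61 (SE 0.18, adjusted p 0.193 in edgeR). NBN kept the WT order seen elsewhere, with WT 3 the highest of the 6 libraries. MRE11, the nuclease, had a log2 fold change of 0.21, which was -0.02 without WT 2. RAD50, the coiled-coil ATPase that tethers the ends, was at -0.03. RBBP8 (CtIP), which starts resection together with MRN, was at 0.26.

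All 6 checkpoint genes had positive log2 fold changes, with a median of 0.54. ATM, the kinase activated by double-strand breaks (chr11:108222484-108369102 on GRCh38), had 79.1, 118 and 107 CPM in the KO libraries, against 72.8, 51.1 and 54.0 CPM in the WT libraries. The groups did not overlap on CPM, and WT 3 lay with WT 2 rather than with the KO libraries. On TPM they overlapped, with ZNFX1 KO 1 at 5.93 and WT 1 at 6.14. The log2 fold change was 0.77 (SE 0.22, adjusted p 0.168 in edgeR), and 0.78 (SE 0.24, adjusted p 0.0353) in DESeq2's Wald test. Over the 18 alternatives its adjusted p ranged between 0.0353 and 0.497. The log2 fold change was 0.68 without WT 2 and 0.73 without WT 3, but 0.49 on log2(TPM + 1) and 0.52 with an effective length offset, both of which take transcript length into account.

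TOPBP1, the activator of the ATR kinase, had 158, 191 and 166 CPM in the KO libraries, against 103, 72.3 and 180 CPM in the WT libraries. WT 3 fell within the KO range, and the log2 fold change was 0.54 (SE 0.31, adjusted p 0.428 in edgeR). CHEK1, the effector kinase of ATR, had 58.6, 89.4 and 75.0 CPM in the KO libraries, against 60.7, 46.2 and 78.3 CPM in the WT libraries. The groups overlapped widely, and the log2 fold change was 0.27 (SE 0.24, adjusted p 0.601 in edgeR). CHEK2, the effector kinase of ATM, reached 73.4 CPM in ZNFX1 KO 1 but only 37.3 and 43.4 CPM in the other KO libraries, against 39.3, 23.0 and 43.6 CPM in the WT libraries, with a log2 fold change of 0.54. ATR itself was at 0.32 and its partner ATRIP, which reads single-stranded DNA, at 0.56.

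The 5 genes of the BRCA complex had a median log2 fold change of 0.24, all positive. BRCA1, the ubiquitin ligase that promotes resection and recombination (chr17:43044295-43170245 on GRCh38), had 68.5, 71.0 and 68.5 CPM in the KO libraries, against 48.6, 27.2 and 73.4 CPM in the WT libraries. The KO values were nearly equal, and WT 3 lay above them. The log2 fold change was 0.48 (SE 0.31, adjusted p 0.483 in edgeR). BRCA2, which prepares resected DNA for strand exchange (chr13:32315474-32400266), had 112, 141 and 72.3 CPM in the KO libraries, against 102, 63.5 and 156 CPM in the WT libraries. Both groups spanned a similar range, with a log2 fold change of 0.02 (SE 0.35, adjusted p 0.984 in edgeR), which was -0.25 without WT 2 and 0.41 without WT 3.

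PALB2, the bridge between BRCA1 and BRCA2, had 38.6, 35.0 and 35.5 CPM in the KO libraries, against 29.1, 22.7 and 32.6 CPM in the WT libraries. The groups did not overlap on CPM, although WT 3 came near the lowest KO library, and on TPM ZNFX1 KO 1 at 5.91 was below WT 3 at 6.35. The log2 fold change was 0.37 (SE 0.18, adjusted p 0.379 in edgeR). BARD1, the obligate partner of BRCA1, was at 0.24, and BRIP1, a helicase that binds BRCA1, was at 0.06.

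**Figure D3:**
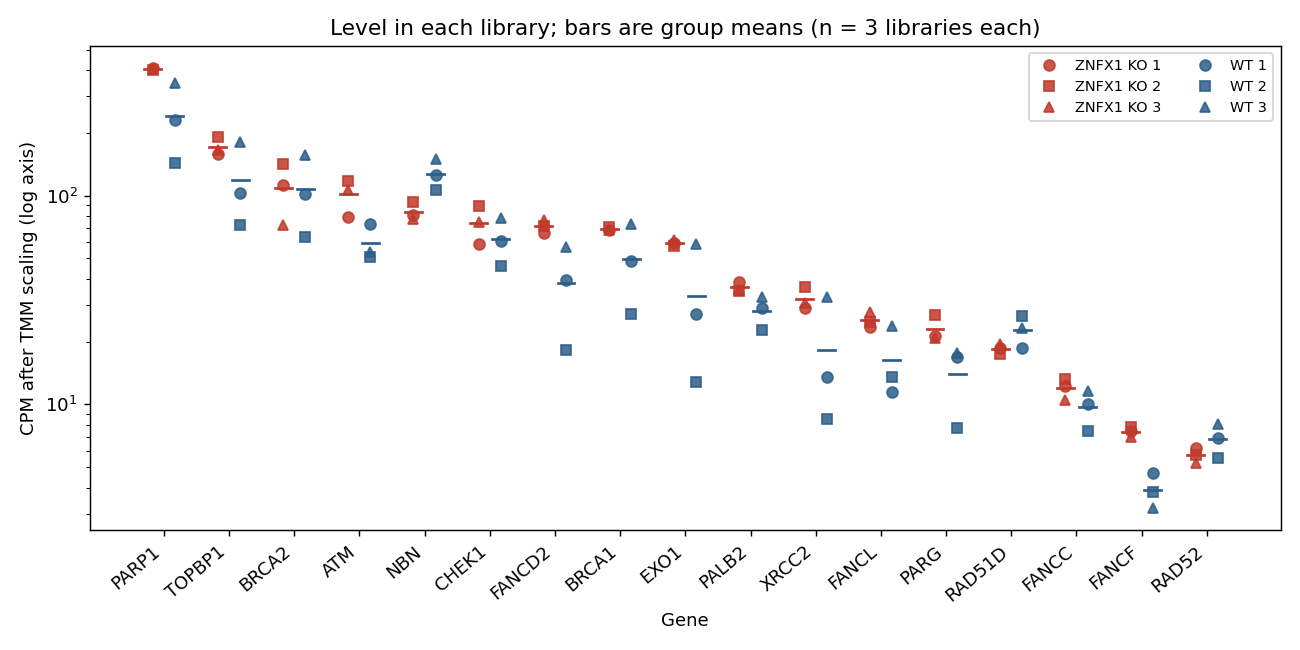
CPM after TMM scaling (log axis) of 17 of the genes described library by library, ordered by their mean in ZNFX1 KO. Red markers are the KO libraries and blue the WT libraries, with a marker shape for each replicate number and a bar at the mean of 3 libraries. Genes given per library only after their values were seen are not drawn. PARP1 shows 399 to 409 CPM in the KO libraries against 143 to 345 CPM in the WT libraries, and NBN is the only gene of these whose KO markers all lie below the WT markers on this scale.

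Among the 8 genes of strand exchange and annealing, 6 were positive and the median log2 fold change was 0.20. XRCC2, which acts in strand exchange, had 29.1, 36.6 and 30.6 CPM in the KO libraries, against 13.6, 8.50 and 32.6 CPM in the WT libraries. WT 3 was within the KO range, and the log2 fold change was 0.82 (SE 0.42, adjusted p 0.395 in edgeR). RAD54L, the motor protein that aids strand invasion, had the low WT 2 value in a sharper form, with 17.6, 17.8 and 18.5 CPM in the KO libraries, against 9.55, 3.39 and 19.3 CPM in the WT libraries, and a log2 fold change of 0.74.

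RAD51D, which acts in a complex with XRCC2, had 18.6, 17.5 and 19.4 CPM in the KO libraries, against 18.6, 26.4 and 23.2 CPM in the WT libraries. WT 2 was its highest library, the opposite of the common placement, and the log2 fold change was -0.30 (SE 0.19, adjusted p 0.472 in edgeR). RAD52, the annealing protein, had 6.17, 5.75 and 5.27 CPM in the KO libraries, against 6.90, 5.51 and 8.07 CPM in the WT libraries. The groups overlapped through WT 2, with a log2 fold change of -0.25 (SE 0.24, adjusted p 0.620 in edgeR). The remaining partners had positive log2 fold changes in the gene row: RAD51C at 0.26, XRCC3 at 0.25, RAD51B at 0.15 and RAD51AP1, which aids strand pairing, at 0.13.

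The 7 genes of the Fanconi core complex had a median log2 fold change of 0.31, and 6 were positive. FANCF, the adaptor of the complex (chr11:22622890-22625841 on GRCh38), had the largest log2 fold change of the 39 genes at 0.92 (SE 0.25, adjusted p 0.157 in edgeR). It had 7.43, 7.76 and 6.99 CPM in the KO libraries, against 4.70, 3.79 and 3.19 CPM in the WT libraries. The groups did not overlap on CPM or TPM, and on CPM WT 3 was the lowest library of all, unlike in the genes that follow the common WT order. FANCF rested on 134 to 154 fragments per KO library and 70 to 92 fragments per WT library, and at 1.17 TPM on average it was the lowest of the 39 genes per length. DESeq2's Wald test gave 0.94 (SE 0.29, adjusted p 0.0387), and the adjusted p ranged between 0.0387 and 0.448 over the 18 alternatives.

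FANCL, the ubiquitin ligase subunit, had 23.5, 24.8 and 27.8 CPM in the KO libraries, against 11.5, 13.6 and 23.7 CPM in the WT libraries. WT 3 was just above the lowest KO library, and the log2 fold change was 0.64 (SE 0.27, adjusted p 0.322 in edgeR). FANCC had 12.2, 13.2 and 10.5 CPM in the KO libraries, against 10.0, 7.44 and 11.6 CPM in the WT libraries. The groups overlapped through WT 3, with a log2 fold change of 0.31 (SE 0.23, adjusted p 0.534 in edgeR). FANCA, a large scaffold subunit, had 13.1, 10.8 and 14.2 CPM in the KO libraries, against 7.46, 2.73 and 24.1 CPM in the WT libraries, which spread more than those of any other of the 39 genes. Its log2 fold change of 0.15 became -0.31 without WT 2 and 1.33 without WT 3. FANCG was at 0.43, FANCE, which contacts FANCD2, at 0.15, and FANCM, the translocase that anchors the complex on DNA, at -0.08.

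FANCD2 and FANCI form the clamp that the core complex ubiquitinates, and both had KO libraries above all WT libraries on CPM. On TPM both overlapped, with FANCD2 at 8.12 in ZNFX1 KO 1 and 8.65 in WT 3, and FANCI at 15.7 in ZNFX1 KO 1 and 18.4 in WT 3. FANCD2 (chr3:10026414-10101930 on GRCh38) had 66.2, 71.5 and 76.6 CPM in the KO libraries, against 39.6, 18.3 and 56.6 CPM in the WT libraries. WT 3 was the nearest to the KO libraries and WT 2 the farthest, with a log2 fold change of 0.90 (SE 0.35, adjusted p 0.287 in edgeR). FANCI had 110, 110 and 111 CPM in the KO libraries, against 85.7, 42.6 and 105 CPM in the WT libraries. The KO libraries hardly differed, and the log2 fold change was 0.51 (SE 0.29).

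The last 4 genes act in ADP-ribosylation and in theta-mediated joining, a repair route used when recombination fails, and their median log2 fold change was 0.61. PARP1, the main ADP-ribose polymerase at breaks and a drug target in ovarian cancer (chr1:226360691-226408079 on GRCh38), was the highest of the 39 genes at 55.4 TPM on average. It had 409, 399 and 404 CPM in the KO libraries, against 231, 143 and 345 CPM in the WT libraries. The groups did not overlap on CPM, while on TPM ZNFX1 KO 1 at 63.8 and ZNFX1 KO 3 at 67.4 were below WT 3 at 68.0. PARP1 had a log2 fold change of 0.76 (SE 0.29, adjusted p 0.286 in edgeR), or 0.49 without WT 2 and 1.13 without WT 3. PARG, the enzyme that removes ADP-ribose chains, had 21.3, 26.8 and 20.8 CPM in the KO libraries, against 16.8, 7.74 and 17.6 CPM in the WT libraries. The groups were apart on CPM but overlapped on TPM, where ZNFX1 KO 1 was at 3.06 and WT 3 at 3.29, with a log2 fold change of 0.71 (SE 0.30, adjusted p 0.323 in edgeR). POLQ, the polymerase of theta-mediated joining, had 55.5, 64.8 and 55.5 CPM in the KO libraries, against 33.6, 21.7 and 68.3 CPM in the WT libraries, with WT 3 the highest and a log2 fold change of 0.51. PARP2 was at 0.38.

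Per length, the 39 genes covered a wide span. Averaged over the 6 libraries, PARP1 at 55.4 TPM was followed by CHEK1 at 20.2 TPM and TOPBP1 at 17.1 TPM, and the lowest were RAD52 at 1.95 TPM, FANCC at 1.82 TPM and FANCF at 1.17 TPM. PARP1 averaged 69.1 ± 6.33 TPM in ZNFX1 KO and 41.7 ± 23.7 TPM in WT, CHEK1 22.1 ± 5.39 TPM in ZNFX1 KO and 18.3 ± 7.11 TPM in WT, and TOPBP1 20.1 ± 4.16 TPM in ZNFX1 KO and 14.1 ± 8.78 TPM in WT (SD, n = 3 each). CHEK1 and TOPBP1 thus did not differ beyond their spread in either group, and neither did RAD52 and FANCC, at 1.58 ± 0.257 and 2.02 ± 0.408 TPM in ZNFX1 KO and 2.32 ± 0.953 and 1.61 ± 0.578 TPM in WT.

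A part of the fragments of these genes stood in separate transcript rows, outside the gene row. The share outside the gene row was under 10% in 21 of the 39 genes, 10 to 30% in 9 and over 30% in 9. RAD50 was the extreme at 76.1%, most of it in a transcript annotated as a target of nonsense-mediated decay. Joined, RAD50 had 126, 128 and 96.5 CPM in the KO libraries, against 129, 139 and 109 CPM in the WT libraries, still overlapping. For RAD51C the share was 48.1% in ZNFX1 KO and 63.3% in WT. A nonsense-mediated decay transcript of it held 94, 70 and 145 fragments in the KO libraries, against 199, 208 and 200 fragments in the WT libraries. The log2 fold change of RAD51C was 0.26 in the gene row and -0.23 (SE 0.15) with the rows joined, at 26.6, 23.8 and 23.7 CPM in the KO libraries, against 27.9, 28.2 and 30.8 CPM in the WT libraries, and the groups no longer overlapped. The share for PARG was 39.5% in ZNFX1 KO and 53.7% in WT, and its log2 fold change was 0.32 when joined. ATRIP had a share of 26.0% in ZNFX1 KO and 39.2% in WT, and its log2 fold change was 0.29 when joined.

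Joining the rows left 0 of the 39 genes called by edgeR, where 1.27% of all genes were called, and 33 positive. All KO libraries were then above all WT libraries in 9 genes, where 9.52% of all genes were: EXO1, ATM, PALB2, FANCE, FANCF, FANCL, FANCD2, PARP1 and PARG. They were below in 4 genes, where 11.3% of all genes were: NBN, RAD51C, RAD51D and RAD52. Several of these gaps were very small. EXO1 had 57.5 CPM in both ZNFX1 KO 1 and WT 3, to the digits given. FANCL had 21.8 CPM in ZNFX1 KO 1 and 21.7 CPM in WT 3, and FANCE 10.0 CPM in ZNFX1 KO 3 and 9.8 CPM in WT 3. RAD51D had 19.5 CPM in ZNFX1 KO 3 and 19.8 CPM in WT 1, and RAD52 10.7 CPM in ZNFX1 KO 1 and 10.8 CPM in WT 3. FANCI overlapped when joined, with 115 CPM in ZNFX1 KO 3 and 116 CPM in WT 3. ATM, with 35.3% of its fragments outside the gene row, had 111, 159 and 139 CPM in the KO libraries when joined, against 92.8, 91.3 and 85.7 CPM in the WT libraries. The WT libraries were then close together, and the log2 fold change was 0.60 (SE 0.18, adjusted p 0.153 in edgeR; 0.0353 to 0.497 over the alternatives).

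**Figure D4:**
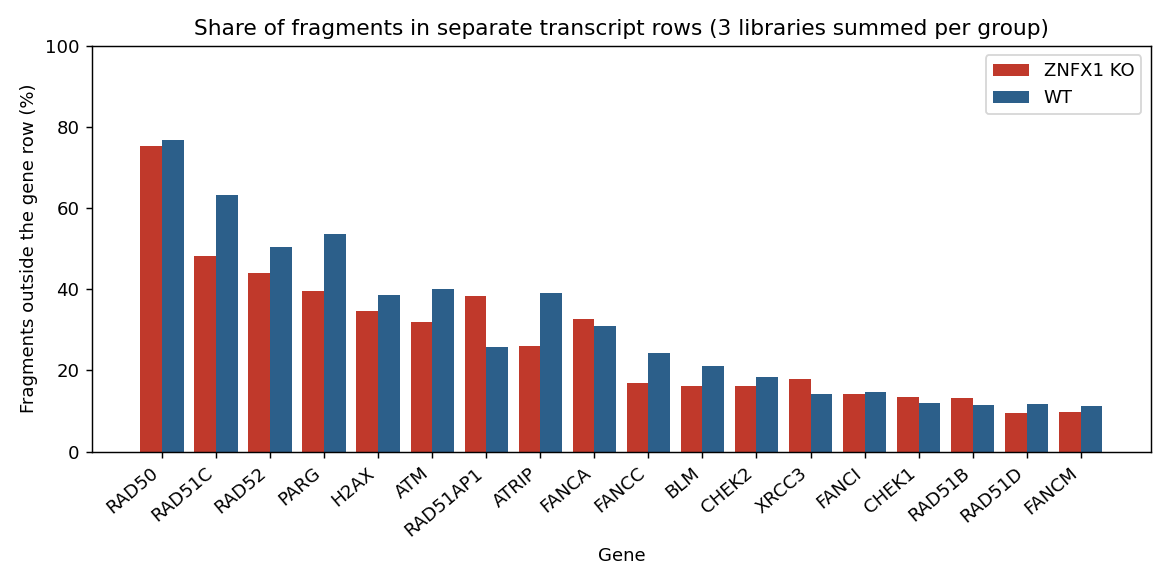
Percent of each gene's fragments that stood in separate transcript rows, summed over 3 libraries per group, for the 18 genes with at least 10% outside; red bars are ZNFX1 KO and blue bars WT. RAD50 is near 76% in both groups, while RAD51C is at 48.1% in ZNFX1 KO and 63.3% in WT.

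The abundance-weighted transcript length deposited with each value moves when the mix of isoforms does. It was within 5% of equality between the group means for 32 of the 39 genes. The groups did not overlap in 3 genes, RBBP8, ATM and TOPBP1, where 6.45% of all tested genes had this, and the ratio of the means was within 1% of equality for RBBP8 and TOPBP1. For ATM the length was 8093, 9783 and 9152 bases in the KO libraries, against 7060, 7953 and 8088 bases in the WT libraries, a ratio of 1.17. This length covers only the transcripts in the gene row, and 35.3% of the ATM fragments stood outside it. The sources used here do not say whether counting used the strand. Values of genes whose span overlaps an expressed neighbour on the other strand may thus be less certain, though overlap of exons was not checked. Such neighbours with over 100 fragments on average were ANKRD49 for MRE11, DECR1 for NBN, NPAT for ATM, HSCB for CHEK2, KLC1 for XRCC3, LRRC41 for RAD54L, ZNF276 for FANCA, VRK2 for FANCL, POLG for FANCI and an antisense gene with 12300 fragments for PARP2. STT3A for CHEK1 and TREX1 for ATRIP overlap on the same strand, where fragments of shared sequence could be split between the genes.

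Other DNA repair and cell cycle genes were placed on the same libraries. No gene of these lists was called by edgeR in the full comparison. In 46 other genes of recombination and Fanconi repair, 31 were positive with a median log2 fold change of 0.19, and 5 had an unadjusted p under 0.05, where 15.1% of all tested genes did. Without WT 2, 25 were positive and the median was 0.08, and without WT 3 it was 0.44. SEM1, the small BRCA2-binding protein, had 147, 134 and 140 CPM in the KO libraries, against 101, 66.7 and 110 CPM in the WT libraries. RMI2, a partner of BLM, had 11.7, 11.5 and 11.1 CPM in the KO libraries, against 6.54, 2.88 and 8.57 CPM in the WT libraries. In both, the KO libraries were above all WT libraries and WT 2 was the lowest, with log2 fold changes of 0.60 (SE 0.21, adjusted p 0.258 in edgeR) for SEM1 and 0.93 (SE 0.36, adjusted p 0.286 in edgeR) for RMI2.

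In 18 genes of end joining and end protection the median log2 fold change was 0.19 with 15 positive, and in 26 tested genes of excision and mismatch repair it was 0.19 with 21 positive. Without WT 2 these medians were 0.09 and 0.13, and without WT 3 the first was 0.38 and the other 0.29. The Ku subunits XRCC6 and XRCC5, which cap broken ends, were at 0.51 (SE 0.24) and 0.38 (SE 0.19). XPA, which verifies damage in nucleotide excision repair, was at 0.73 (SE 0.23), and APEX1, the abasic site endonuclease, at 0.44 (SE 0.18). The order WT 2 below WT 1 below WT 3 held in 52.2% of the other recombination and Fanconi genes, 44.4% of the end joining genes and 42.3% of the excision and mismatch repair genes, below the 79.5% of the 39 genes. These differences between lists were described and not tested.

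Cell cycle genes had the placement of the 39 genes in a stronger form. All 34 S phase genes and all 27 G2 and M phase genes had positive log2 fold changes, with medians of 0.65 and 0.53, and the WT order held in 97.1% and 100% of them. The median over the S phase genes was 0.47, 0.39 and 0.54 in ZNFX1 KO 1, 2 and 3, against -0.54, -1.45 and 0.55 in WT 1, 2 and 3, relative to the 6-library mean. TYMS, which makes thymidylate, had 30.3, 44.8 and 36.4 CPM in the KO libraries, against 15.1, 5.36 and 22.8 CPM in the WT libraries. NDC80, a kinetochore protein, had 52.6, 59.7 and 55.9 CPM in the KO libraries, against 32.4 CPM in WT 1, 33.4 CPM in WT 3 and a lower level in WT 2. POLA1, the catalytic subunit of DNA polymerase alpha, was at a log2 fold change of 0.68 (SE 0.31) and CDC20, an activator of mitotic exit, at 0.69 (SE 0.25). Without WT 3 the medians were 1.38 and 0.90, and edgeR called 22 of the 34 S phase genes and 4 of the 27 G2 and M phase genes. Of all tested genes, 9.02% were called in that fit, and 4.09% were called higher in ZNFX1 KO. Without WT 2 the medians were 0.30 and 0.27, with 29 and 26 genes positive and 0 called, where 0.393% of all genes were called.

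The 31 tested interferon-stimulated genes ran the other way, with 0 positive and a median log2 fold change of -1.24. Without WT 2 the median was -0.38, with 6 positive. Their median relative to the 6-library mean was -0.22, -0.54 and -0.69 in ZNFX1 KO 1, 2 and 3, against 0.01, 1.73 and -0.32 in WT 1, 2 and 3. WT 2, lowest in the repair and cell cycle genes, was the highest here. IFIH1, the RNA sensor MDA5, had 15.3, 16.1 and 17.7 CPM in the KO libraries, against 38.9, 150 and 21.5 CPM in the WT libraries, and DDX60, a helicase induced by interferon, had 27.5, 28.8 and 22.3 CPM in the KO libraries, against 62.5, 139 and 35.3 CPM in the WT libraries. The part of cell cycle and interferon state in the differences of the repair genes was not tested.

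**Figure D5:**
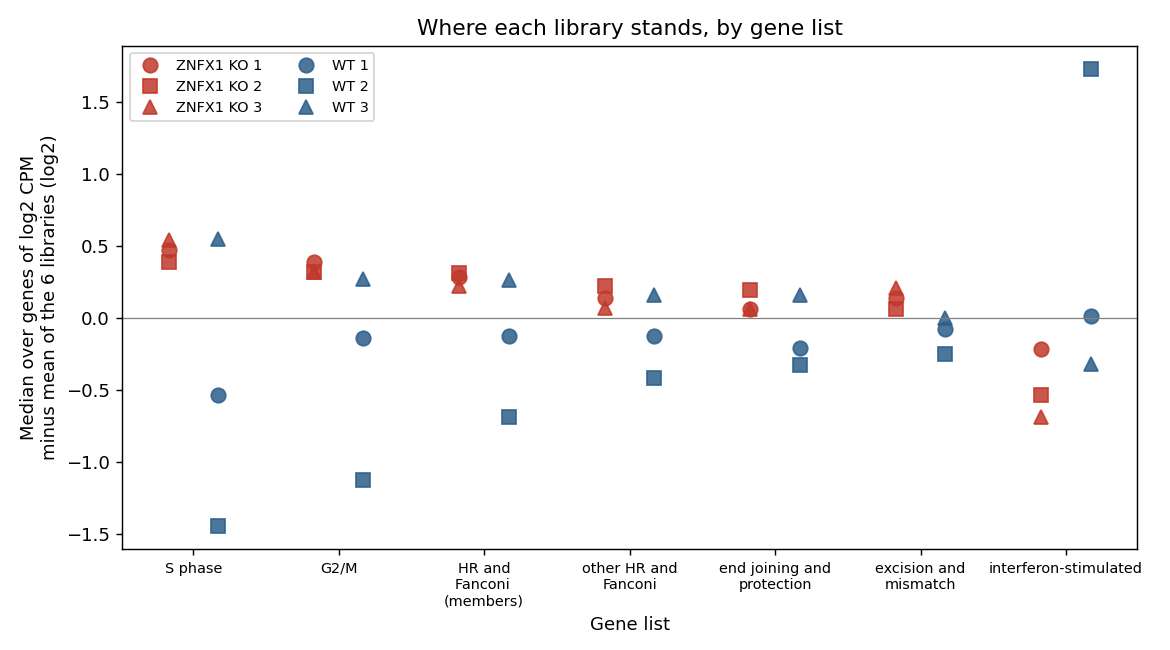
Median over the genes of each list of log2 CPM minus the gene's mean over the 6 libraries, with ZNFX1 KO libraries (red) left of WT libraries (blue) in each list and a marker shape for each replicate number. For the 39 repair genes the KO libraries lie at 0.22 to 0.31 and WT 2 at -0.69; the spread of the WT libraries is widest for S phase and interferon-stimulated genes.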

How the data were processed

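RNA of 3 ZNFX1 KO and 3 WT samples of TYK-nu was sequenced from stranded total RNA libraries, per the labels. The submitters' processing notes list DESeq2, FastQC, Salmon and Trimmomatic. The genome build, annotation release and strand setting were not given in the sources used here. Per the labels, the authors ran Salmon, and its estimated counts of fragments fill the deposited files. TPM values and lengths were deposited beside them, per the labels. Each has 197169 rows, 62260 for genes and 134909 for transcripts outside a gene row, which hold 9.93% to 10.7% of the fragments. Of these, 103521 could be joined to a gene through GENCODE 29 (GRCh38), which also gave gene coordinates.

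Estimated counts of the gene rows were rounded to integers. After filterByExpr, libraries were scaled by TMM (factors 0.958 to 1.04) and the quasi-likelihood test of edgeR 4.0.16 (two-sided, R 4.3.3) was run on genotype alone, with Benjamini-Hochberg adjustment over all 14166 genes. Standard errors are the log2 fold change over the square root of F. The prior count of log2 CPM in the library placement was 2. No library was treated as a duplicate, since a chi-square test of the counts gave at least 30.3 for each degree of freedom in every pair.

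The genes and lists were chosen with earlier results of these data known. Genes given library by library were the 10 with the smallest p, the 3 highest and 3 lowest by TPM, the 3 most negative, BRCA1 and BRCA2, and the others that are given per library were added after their values were seen; in the other lists the 2 with the smallest p were named. The test was checked on simulated data. The alternatives were other scalings, filters, limma 3.58.1 on counts (voom) and on log2(TPM + 1) and log2(TPM + 0.1), the DESeq2 1.42.0 Wald test, a length offset, joined transcript rows, a replicate block, a fit without mitochondrial and small structured RNAs, and leaving out each library.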

Additional observations from a re-analysis of the deposited data

How the results depend on the processing

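Of 702 log2 fold changes of the 39 genes under 18 alternatives, 670 kept their direction and their side of the threshold, 10 passed the threshold and 22, in 8 genes, changed sign. The count of all genes called, 103 in the comparison as reported, was 602 with no filter, 579 by DESeq2's Wald test, 48 on log2(TPM + 1), 66 on log2(TPM + 0.1) and 187 with transcript rows joined. Leaving out a library gave 2 (without ZNFX1 KO 2) to 1315 (without WT 3) calls among all genes and 0 to 8 among the 39 genes, of which DESeq2 called 2. The median log2 fold change of the 39 genes ran between 0.19 and 0.57 when a library was left out. ZNFX1 was at -1.03 to -0.53 when a library was left out, and at -1.01 (adjusted p 0.0468 in edgeR; 0.0468 to 0.553 over the alternatives) without WT 3.

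The sign changes were near 0 for RAD50, at 0.00 with no filter, 0.01 on both TPM scales and -0.09 to 0.05 when a library was left out. BRCA2 and BRIP1 were at -0.05 and -0.00 with library totals alone, and at -0.25 to 0.41 and -0.26 to 0.44 when a library was left out. RAD51C was at -0.23 with transcript rows joined. When a library was left out, MRE11 was at -0.02 to 0.57, RAD51AP1 at -0.25 to 0.48, FANCA at -0.31 to 1.33 and FANCM at -0.38 to 0.35. The cause was not tested.

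Whether replicate numbers pair the samples is not known. The correlation of deviations between same-numbered libraries was 0.129, -0.041 and 0.007, and between differently numbered ones -0.096 to 0.093. Such correlations cannot exclude that same-numbered samples were handled together. With the replicate block, 14 of all genes and 0 of the 39 were called, and the median of the 39 was 0.42. FANCF had 70 to 154 fragments per library, among the lowest of the 39 genes.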
